A study of Lachancea kluyveri with 9 samples.

Results

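The left arm of chromosome C of the budding yeast Lachancea kluyveri was described here as the gene models whose smallest coding start lies at or below position 1000000 and whose counts averaged at least 50 over 9 RNA-seq libraries. Of 5189 gene models on 8 chromosomes, 464 lay on the arm and 402 of these met the count minimum. The 62 arm models under the minimum were left out, although 47 of them were still abundant enough to be tested. The members nearest the minimum averaged 51.8 and 51.9 counts, and the nearest models under it averaged 49.8 and 49.7 counts. The deposited table carries positions, strands and gene-predictor identifiers but no gene names, so models are given here by position on chromosome C. The genome build was not given in the sources used here.

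Poly(A) RNA was sequenced from 3 cell types that differ at the mating-type locus. The a libraries came from strain yLB76, the alpha libraries from strain yLB77 and the a/alpha libraries from strain FDy22, with 3 libraries each. All 3 strains were labelled wild type and prototrophic, and all cultures were grown in YPED at 30 °C from an optical density of 0.1 and collected between 0.5 and 1.0. Each cell type was represented by 1 strain, so strain and cell type cannot be told apart. These are bulk libraries, in which fewer cells with an RNA and less RNA per cell cannot be told apart either.

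The left arm of chromosome C is known in this species for a base composition richer in G and C than the rest of the genome, and it carries the mating-type locus. In Saccharomyces cerevisiae, the relative in which this locus is best understood, a and alpha cells each express a set of mating genes of their own, and a/alpha cells repress both sets together with genes that all mating-competent cells share. The base composition of the members was not analysed here.

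Total counts ran from 743244 in a/alpha replicate 1 to 10776548 in a/alpha replicate 2, and the other libraries held at least 6379488. A count of 3 was worth 4.04 CPM (counts per 1000000 counts) in a/alpha replicate 1 and 0.278 CPM in a/alpha replicate 2, so low values in a/alpha replicate 1 were imprecise. CPM were scaled with trimmed-mean (TMM) factors throughout.

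The models of the arm moved together from library to library. For each member, the deviation of its log2 CPM from its own mean over the 9 libraries was taken, and the median over the 402 members was used as the arm's shift in a library. This shift was 0.64, -0.33 and -0.26 in a replicates 1, 2 and 3, and 0.10, -0.42 and -0.49 in the alpha replicates. In the a/alpha replicates it was 0.31, 0.27 and 0.19. Replicate 1 was the highest library of both the a and the alpha group, while the a/alpha libraries lay close together and above every a and alpha library except a replicate 1. The mean shift was 0.02 ± 0.54 for the a libraries, -0.27 ± 0.32 for alpha and 0.26 ± 0.06 for a/alpha (SD, n = 3), so the a and a/alpha libraries overlapped and the alpha libraries lay below all a/alpha libraries.

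The arm's shift was shared by most of its models. In a replicate 1, 366 of the 402 members lay above their own mean, against 59 in a replicate 2 and 71 in a replicate 3. Counts in the alpha replicates were 267, 56 and 58, followed by 321, 311 and 302 for a/alpha. A replicate 1 gave the highest of the 3 a values for 382 members, which is 95.0% of them, against 34.3% to 42.0% of models on the rest of chromosome C and on each other chromosome. Alpha replicate 1 gave the highest alpha value for 343 members (85.3%), against 31.4% to 37.6% elsewhere. The difference between a replicate 1 and a replicate 2 amounted to a 1.95-fold higher arm level, and that between alpha replicates 1 and 2 to a 1.44-fold higher one.

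**Figure D1:**
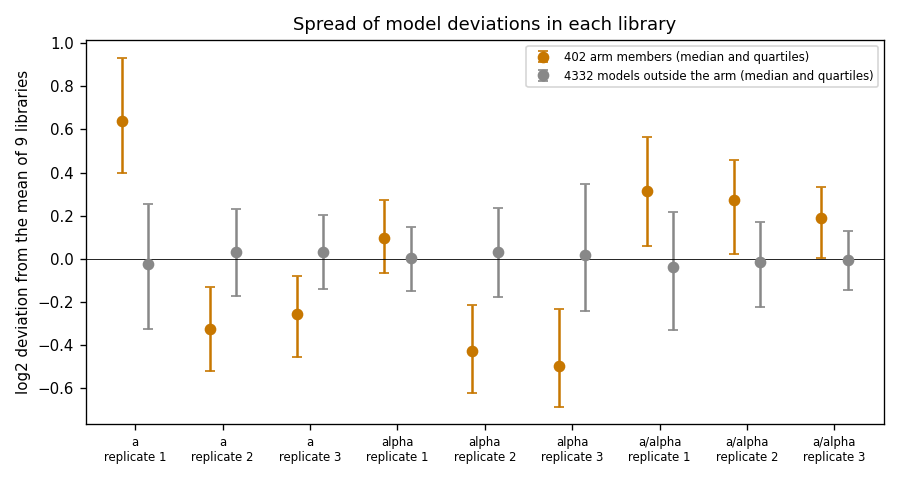
Deviation of log2 CPM from each model's mean over 9 libraries (vertical axis) in each library (horizontal axis); points are medians and bars run from the lower to the upper quartile, for the 402 arm members and for the 4332 models outside the arm with at least 50 counts. The arm medians run from -0.49 in alpha replicate 3 to 0.64 in a replicate 1, while the medians outside the arm stay close to 0 in all 9 libraries.

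None of the other segments compared showed a shift of this size. The same median, taken over the rest of chromosome C and over each of the other chromosomes, stayed between -0.085 and 0.058 in all 9 libraries. Its SD over the libraries was 0.391 on the arm and 0.027 to 0.046 on the other segments. Replicates disagreed more on the arm, where the median SD of log2 CPM within a cell type was 0.432, against 0.230 to 0.249 elsewhere. After subtraction of the shift from each library, the median SD on the arm was 0.224. Some fall was built in, because the shift is the median of these same members, and nothing was subtracted elsewhere.

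The shift ran along the arm and did not continue past its boundary, but several libraries showed less of it in the first and last 100 kb. In the 10 bins of 100 kb that make up the arm, the median deviation in a replicate 1 lay between 0.49 and 0.82. In the 3 bins past the boundary it was -0.03, -0.04 and -0.21, the last from 16 models. In the last arm bin a/alpha replicates 2 and 3 were at 0.052 and 0.054, against 0.27 and 0.19 over the whole arm. Alpha replicates 2 and 3 were at -0.26 and -0.31 there, against -0.42 and -0.49. The first arm bin had a replicate 1 at 0.49 and a/alpha replicate 2 at 0.13, against 0.64 and 0.27 over the whole arm. How closely a single model followed the arm was measured as the slope of its deviations from its cell-type means on those of the arm, where a slope of 1 means that a model moved as far as the arm's median and 0 that it did not move with it. The median slope of the arm bins lay between 0.83, in the first bin, and 1.21. Those of the 3 bins past the boundary were -0.24, -0.03 and -0.23.

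**Figure D2:**
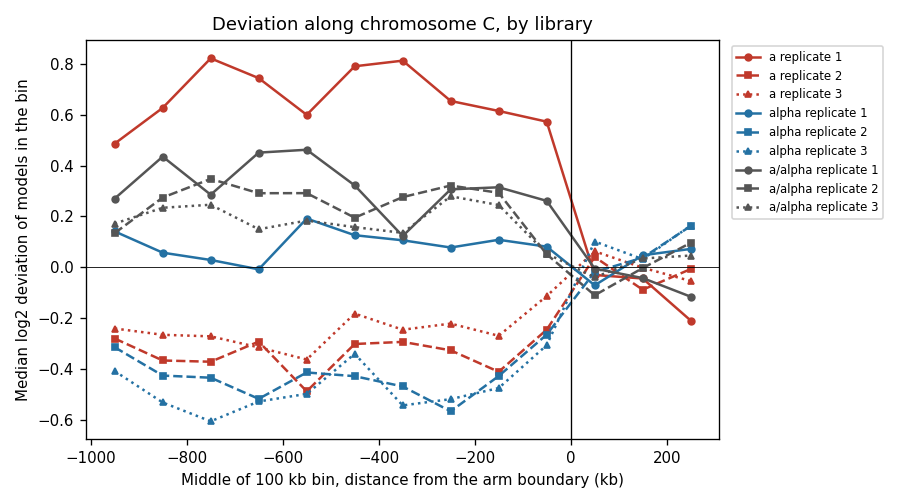
Median log2 deviation of the gene models in each 100 kb bin (vertical axis) against the distance of the bin's middle from the arm boundary in kb (horizontal axis), with 1 line per library. Left of the boundary the 9 libraries are spread from a replicate 1, between 0.49 and 0.82, down to the a and alpha replicates 2 and 3, which are below 0 in every bin; right of it they come together around 0.

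Closer to the boundary, the slopes were compared model by model. The last 20 members before it had a median slope of 0.78, with 12 at 0.5 or above, and the first 20 models past it had a median slope of -0.28, with 2 at 0.5 or above. The 3 members just inside, which start at 987193, 989118 and 991612, had slopes of 1.27, 0.44 and -0.03. The 3 models just outside, which start at 1003048, 1004717 and 1005780, had slopes of 0.18, -0.60 and -0.60. The position of 1000000 thus falls next to models on both sides that did not follow the arm, and the member at 987193 was the last with a slope over 0.5.

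Over all 402 members the median slope was 1.05, which is close to 1 by the way the shift was made, with an interquartile range of 0.76 to 1.28. A slope of at least 0.5 was found for 348 members (86.6%), against 12.3% of models outside the arm, whose median was -0.08. The 47 tested arm models under the count minimum, which took no part in setting the shift, had a median slope of 1.18, or 0.79 without a replicate 1, and 40 of them reached 0.5. Among members with at least 500 counts on average, the closest correlations with the shift belonged to models at 332205 to 334511, 740337 to 743690 and 865789 to 868908. The member at 740337, for example, measured 134, 63.6 and 73.0 CPM in the a replicates, 77.9, 51.9 and 49.1 CPM in alpha and 87.8, 88.8 and 83.98 CPM in a/alpha. Its replicate 1 was the highest in both a and alpha, and the a/alpha values overlapped the a values. After the shift was subtracted it averaged 84.4 ± 4.04, 70.6 ± 1.94 and 72.6 ± 1.67 CPM (SD, n = 3) in the 3 cell types, and none of its 3 comparisons was called.

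Members with high levels followed the arm less. Levels were compared between models as CPM per kb of coding length, and the members were split into 5 equal classes of this level. From the lowest class to the highest the median slopes were 1.17, 1.24, 1.05, 0.98 and 0.75. Without a replicate 1 they were 1.14, 1.23, 1.05, 0.94 and 0.81. Models outside the arm showed a similar fall over the same ranges of level, with medians of 0.09, 0.04, -0.02, -0.09 and -0.30. The gap between arm and outside was therefore 1.08, 1.20, 1.07, 1.07 and 1.05 from the lowest to the highest class. At 1000 CPM per kb or more, 11 of 13 members had a slope under 0.5, and their median of -0.08 stood against -0.42 in models outside the arm at such levels, a gap of 0.34. The 38 members with under 400 coding bases, which had a median level of 112 CPM per kb, had a median slope of 0.37, against -0.56 in models of such length outside the arm. Strand made little difference, with median slopes of 1.04 in the 201 members on the plus strand and 1.05 in the 201 on the minus strand. Members with more than 1 coding part had a median slope of 0.99 and those with 1 part a median of 1.05.

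**Figure D3:**
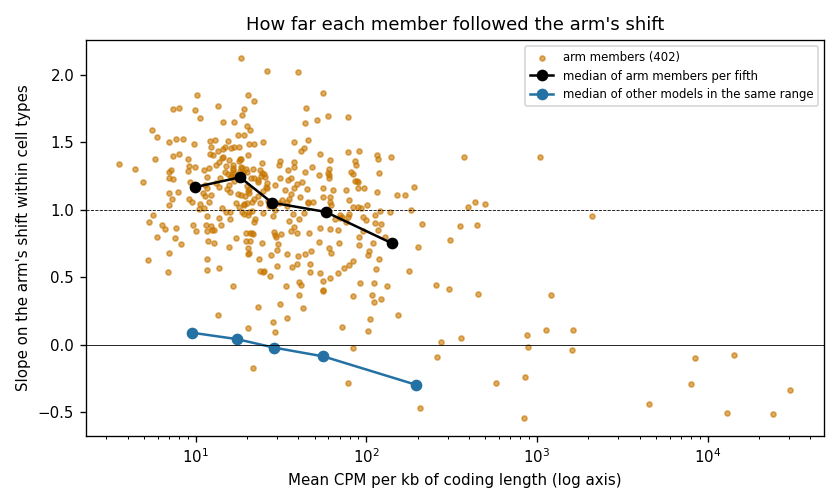
Slope of each member's within-cell-type deviations on the arm's shift (vertical axis) against its mean CPM per kb of coding length (horizontal axis, log scale), with class medians for arm members and for models outside the arm in the same ranges of level. Arm medians fall from 1.17 to 0.75 and those outside from 0.09 to -0.30, and nearly all members at 1000 CPM per kb or more lie under a slope of 0.5.

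The 5 most abundant members per kb all departed from the shared movement, with slopes of -0.34, -0.52, -0.08, -0.51 and -0.10. They lie at 443197 to 443397, 169754 to 170597, 441633 to 442022, 440459 to 441233 and 81284 to 81478, so that 3 of them are neighbours. In the model at 441633, the levels were 3650.4, 3759 and 3562 CPM in a, 7144, 6283 and 9397 CPM in alpha and 5638, 5222 and 5415 CPM in a/alpha. Its a libraries were the lowest and did not overlap those of the other cell types, and a replicate 1 did not stand out. Lower levels in a than in alpha were also typical of the 168 models outside the arm at 1000 CPM per kb or more. Their median deviations were -0.53, -0.32 and -0.12 in a and 0.12, 0.32 and 0.53 in alpha. For the member at 441633 the a against alpha log2 fold change was -1.06 ± 0.17 before subtraction of the shift (approximate SE; edgeR adjusted p = 0.00168) and -1.33 ± 0.27 after it (adjusted p = 0.00329). For such members the subtraction removes a movement that they did not show, and it widened this member's error.

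These few models carry much of the arm's RNA. The 10 most abundant members took between 3.27% and 4.50% of all counts, and the whole arm took 7.45%, 5.47% and 5.47% in the a replicates. In alpha it took 6.56%, 5.44% and 6.08%, and the a/alpha libraries gave it 6.64%, 6.39% and 6.41%. Without those 10 members the share was 4.08%, 2.17% and 2.20% in a and 2.56%, 1.71% and 1.57% in alpha. For a/alpha it was 2.99%, 2.84% and 2.76%. Without them all 3 alpha libraries lay below all a/alpha libraries, and a replicate 1 was above every other library. The typical member was less abundant than models elsewhere, with a median level of 28.5, 22.5 and 29.4 CPM per kb in a, alpha and a/alpha, against 40.5, 40.6 and 39.2 CPM per kb outside the arm. Structure differed little, since the median coding length was 1263 bases on the arm and 1293 outside, and 14.7% and 13.1% of models had more than 1 coding part.

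The study's contrasts were then tested on the whole table with edgeR's quasi-likelihood test and Benjamini-Hochberg adjustment at 0.05, once as they stand and once after centring, in which each library's arm shift was subtracted from all arm models. A call after centring is a departure from the arm's median and not a change in absolute level, and its p-value does not hold the uncertainty of the shift. Both contrasts with a/alpha use the same a/alpha libraries. These fits held no block for the replicate number, so no pairing enters their standard errors or adjusted p-values.

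In a against a/alpha, 23 members were higher and 24 lower in a before centring, together 11.7% of members. Of all 5042 tested models 12.9% were called, 7.32% higher and 5.61% lower. After centring, 40 members were higher and 37 lower, or 19.2% of members, and of all tested models 15.8% were called, 8.96% higher and 6.8% lower. All 23 higher members kept their call and 17 joined them, while 17 of the lower members kept theirs, 7 lost it and 20 were gained. The median log2 fold change of the members before centring was -0.19, and that of all tested models 0.02. Without a replicate 1, which stood apart, 188 members were called before centring, 22 higher and 166 lower, which is 46.8% of members against 21.2% of all tested models. Without a replicate 2, 24 were higher and 7 lower, and leaving out any 1 library of this comparison other than a replicate 1 gave 22 to 31 calls, with 6.60% to 9.16% of all tested models called. After centring these counts ran from 51, without a replicate 2, where 8.48% of all models were called, to 91, without a replicate 1, where 19.9% were. In the authors' deposited table for this contrast, 23 members were higher and 29 lower at the same threshold, where 13.4% of all models with an adjusted p were called, and 44 members were called in both.

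In alpha against a/alpha, 16 members were higher and 35 lower before centring, or 12.7% of members. Of all tested models 10.3% were called, 6.55% higher and 3.71% lower. The median log2 fold change of the members was -0.53, and that of all tested models 0.01. After centring the balance turned, with 49 members higher and 18 lower, or 16.7% of members, while 14.3% of all tested models were called, 9.7% higher and 4.6% lower. With the mean in place of the median as the shift, 37 were higher and 42 lower after centring, with 14.6% of all models called. Under upper-quartile scaling 14 were higher and 59 lower before centring, with 11.1% of all models called. The 16 higher members kept their call and 33 were gained, while 17 lower members kept theirs, 18 lost it and 1 was gained. Before centring, leaving out alpha replicate 1 gave 18 higher and 111 lower, or 32.1% of members against 19.4% of all tested models. The count was 17, with 11 higher and 6 lower, when alpha replicate 2 was left out and 20 for alpha replicate 3, and 16 and 20 when a/alpha replicate 2 or 3 was dropped, and in these 4 fits 3.00% to 4.30% of all models were called. After centring, dropping alpha replicate 2 or 3 gave 40 or 36 calls and dropping a/alpha replicate 2 or 3 gave 31 or 37, with 4.61% to 6.86% of all models called. In the authors' deposited table for this contrast, 15 members were higher and 54 lower, where 10.8% of all models with an adjusted p were called.

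In a against alpha, 32 members were higher and 20 lower in a before centring, or 12.9% of members. Among all tested models 17.9% were called, 8.05% higher and 9.9% lower. After centring, 40 members were higher and 44 lower, or 20.9% of members, and among all tested models 21.6% were called, 10% higher and 11.6% lower. Upper-quartile scaling gave 50 higher and 11 lower before centring, with 19.8% of all models called. Of the higher members 27 kept their call, 5 lost it and 13 were gained, and of the lower members 19 kept theirs, 1 lost it and 25 were gained. No member changed direction between called states. Without a replicate 1 the balance before centring turned to 18 higher and 39 lower, and after centring it was 27 higher and 42 lower. In these fits 15.7% and 17.5% of all models were called. Dropping alpha replicate 1 gave 84 higher and 14 lower before centring, with 23.8% of all models called. Dropping alpha replicate 2 or 3 gave 20 or 19 calls before centring, with 9.59% or 8.44% of all models called. After centring it gave 49 or 44, with 13.0% or 11.6% of all models called.

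Within each number the arm's shift was higher in a than in alpha, by 0.54, 0.10 and 0.24 for numbers 1, 2 and 3. There are only 3 such pairs. With the numbers ignored, the difference of the group means depended on a replicate 1 and went from 0.29 to -0.01 without it. That comparison kept alpha replicate 1, the highest alpha library, and so broke the pair of number 1. The difference in the arm's share of counts, a minus alpha, went from 0.10 to -0.56 percentage points without a replicate 1. No label says that the numbers mark a shared batch. They were treated as pairs here because a and alpha libraries of the same number deviated together, although number 2 correlated more with another number. The calls above do not use this pairing. The pairing was chosen from the deviations of these same data. The differences within numbers and the block fit therefore cannot show that the libraries are paired. With the number as a block on the a and alpha libraries alone, 174 members were higher and 42 lower before centring, or 53.7% of members against 43.6% of all tested models. After centring 69 were higher and 93 lower, or 40.3% of members against 43.8% of all tested models.

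**Figure D4:**
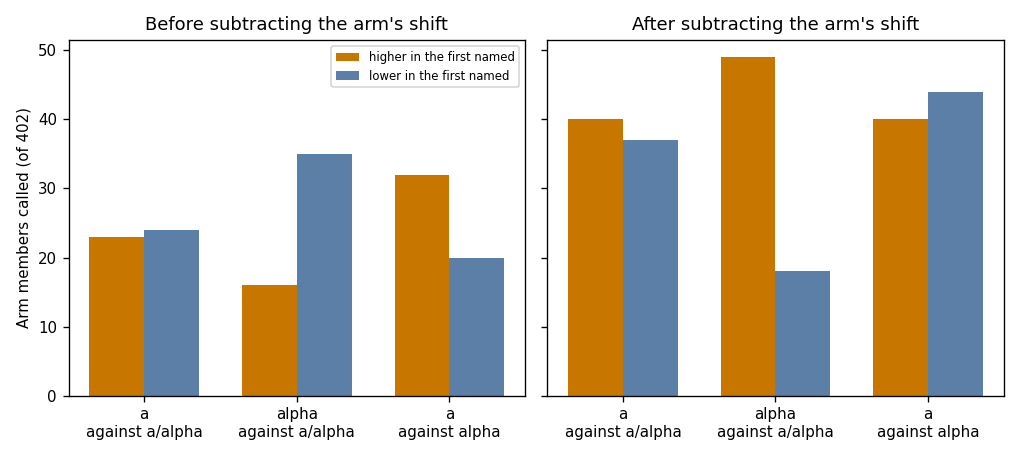
Number of the 402 arm members called at an adjusted p of 0.05 or below (vertical axis, from 0) in each comparison (horizontal axis), split by direction, before subtraction of the arm's shift (left) and after it (right). In alpha against a/alpha the bars turn from 16 higher and 35 lower to 49 higher and 18 lower.

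The members that departed most from the arm's shift were then taken by size. They were called after centring, differed at least 2-fold and had all libraries of one group above those of the other. In a against a/alpha 26 members met this as higher and 8 as lower, where 3.95% and 1.15% of all tested models did. In alpha against a/alpha 29 and 5 members met it, against 3.07% and 1.37% of all models, and in a against alpha 7 and 16 did, against 2.52% and 3.13%. Reads were counted on the same strand as each model, from a kit that marks strand. Whether this setting matches the kit's read orientation was not tested, and with the opposite orientation the counts would be of antisense reads. This bears most on members that lie across each other on opposite strands, whose values are uncertain.

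A first set was high in a and in alpha and low in a/alpha. The model at 539308 to 542772, on the minus strand, measured 223, 86.7 and 83.1 CPM in a, 129, 65.6 and 77.8 CPM in alpha and 6.86, 5.71 and 5.26 CPM in a/alpha. Its a and alpha values overlapped and replicate 1 was the highest of each, as on the arm at large, and all lay far above the a/alpha values. Its log2 fold change after centring was 4.62 ± 0.23 in a against a/alpha (edgeR adjusted p = 1.03e-09) and 4.48 ± 0.23 in alpha against a/alpha (adjusted p = 2.55e-09). The short model at 541385 to 541675 lies inside it on the plus strand and had the highest log2 fold change of the arm in a against a/alpha, 6.34 ± 0.58 after centring (adjusted p = 1.32e-06), but it rested on 0, 0.374 and 0.107 CPM in a/alpha and rose to 7.40 without a/alpha replicate 2.

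A second overlapping pair behaved alike. The model at 229684 to 230997, on the minus strand, measured 93.1, 58.8 and 49.6 CPM in a, 57.3, 40.3 and 40.6 CPM in alpha and 2.74, 3.09 and 3.87 CPM in a/alpha. Every a and alpha library was above every a/alpha library, by a log2 fold change of 4.46 ± 0.21 in a (adjusted p = 5.82e-10) and 4.23 ± 0.21 in alpha (adjusted p = 2.52e-09) after centring. Its plus-strand partner at 228916 to 229903 was listed at 0, 1.22 and 0.859 CPM in a/alpha and between 21.8 and 50.01 CPM in the a and alpha libraries.

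Neighbours could go opposite ways. The member at 348996 to 350213 measured 61.9, 58.5 and 61.4 CPM in a, 41.0, 36.2 and 33.1 CPM in alpha and 6.86, 7.21 and 6.55 CPM in a/alpha. It was higher in a and alpha than in a/alpha without overlap, by log2 fold changes of 3.40 ± 0.26 and 2.93 ± 0.26 after centring (adjusted p = 1.38e-07 and 1.4e-06). Its slope was 0.17, so the subtraction removed a movement that it hardly showed, and both fold changes hold this. The next model on the same strand, at 350495 to 351358, measured 55.4, 34.3 and 31.9 CPM in a, 13.7, 14.7 and 11.97 CPM in alpha and 118, 188 and 152 CPM in a/alpha. Its groups did not overlap, with alpha the lowest and a/alpha the highest. It was lower than in a/alpha by log2 fold changes of -1.75 ± 0.19 in a (adjusted p = 1.16e-05) and -2.999 ± 0.21 in alpha (adjusted p = 8.23e-08) after centring.

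Other members were highest in a/alpha. The model at 513161 to 513481, on the minus strand, measured 10.98, 5.56 and 5.73 CPM in a, 23.5, 22.6 and 23.5 CPM in alpha and 140, 188 and 164 CPM in a/alpha. The 3 groups did not overlap. The log2 fold change against a/alpha after centring was -4.32 ± 0.20 in a (adjusted p = 5.82e-10) and -2.29 ± 0.18 in alpha (adjusted p = 3.86e-07). The model at 24781 to 28587 measured 69.3, 49.6 and 35.5 CPM in a, 47.2, 74.3 and 41.5 CPM in alpha and 592, 463 and 553 CPM in a/alpha. Its a and alpha values overlapped and all were far below a/alpha, with log2 fold changes of -3.17 ± 0.27 (adjusted p = 4.64e-07) and -2.73 ± 0.26 (adjusted p = 3.38e-06) after centring. Among smaller differences, the model at 116567 to 117931 measured 2018 CPM, 911 CPM and 872 CPM in a, 1036, 559.9 and 496 CPM in alpha and 2571, 2081 and 2222 CPM in a/alpha. Its slope was 1.39, and a replicate 1 came close to the a/alpha values.

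The largest difference between a and alpha lay in a stretch from 474022 to 481671. Here the model at 475936 to 477402, on the minus strand, measured 4.61, 2.12 and 1.74 CPM in a, 497, 345 and 312 CPM in alpha and 2.74, 14.1 and 4.40 CPM in a/alpha. It was high in all 3 alpha libraries and low in all others, and the a and a/alpha libraries overlapped. After centring its log2 fold change was -7.45 ± 0.37 in a against alpha (adjusted p = 2.17e-09) and 5.96 ± 0.35 in alpha against a/alpha (adjusted p = 1.05e-08), the latter rising to 6.96 without a/alpha replicate 2. The model before it, at 474022 to 475743 on the plus strand, measured 25.5, 13.8 and 14.6 CPM in a, 68.1, 75.7 and 54.4 CPM in alpha and 16.5, 21.2 and 23.3 CPM in a/alpha. It too was highest in alpha, by a log2 fold change of 2.15 ± 0.20 against a/alpha (adjusted p = 2.47e-06).

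In the same stretch the model at 481147 to 481671 had the opposite pattern. It measured 24.4, 10.7 and 17.0 CPM in a, 1.96, 1.14 and 1.85 CPM in alpha and 4.12, 2.99 and 2.36 CPM in a/alpha. It was high in a alone, by log2 fold changes of 3.06 ± 0.28 against alpha (adjusted p = 3.06e-06) and 2.80 ± 0.27 against a/alpha (adjusted p = 2.73e-06) after centring. The model between, at 477986 to 480695, was called in no comparison before centring and in alpha against a/alpha after it (edgeR adjusted p = 0.0456). This grouping by position was made after the values were seen.

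**Figure D5:**
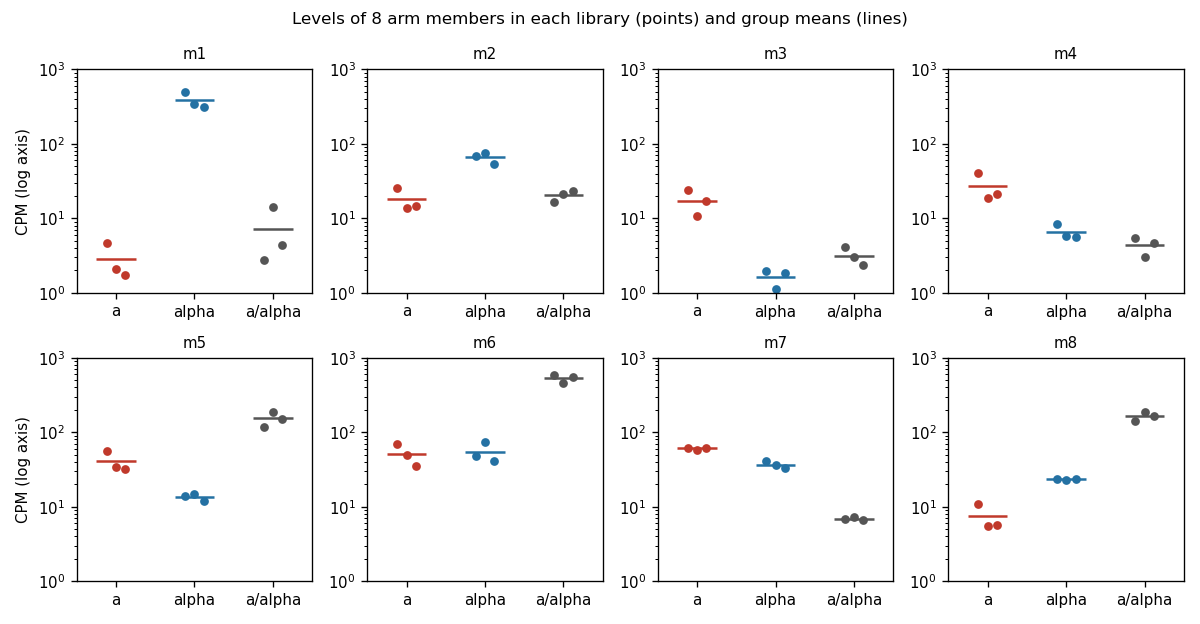
CPM (vertical axes, log scale) in each library (points) and group means (lines) for 8 members, from 3 libraries each of a, alpha and a/alpha; m1 to m8 start at 475936, 474022, 481147, 904769, 350495, 24781, 348996 and 513161 and overlap no model on the other strand. Panels m1 and m2 are highest in alpha, m3, m4 and m7 in a, and m5, m6 and m8 in a/alpha.

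Some comparisons of single members were called only after centring, which measures them against the arm's median. Centring takes out the arm's own difference between groups, so fold changes move with it. The arm's shift differed by -0.53 in alpha minus a/alpha and by 0.29 in a minus alpha. The member at 64319 to 66865 measured 95.0, 36.8 and 48.1 CPM in a, 141, 104 and 111 CPM in alpha and 158, 77.3 and 89.3 CPM in a/alpha. Replicate 1 was the highest in each group, and the a libraries were all below the alpha libraries. Its a against alpha log2 fold change was -0.99 ± 0.32 before centring (adjusted p = 0.052) and -1.37 ± 0.21 after it (adjusted p = 0.0004). The member at 904769 to 905971 measured 41.2, 19.1 and 21.3 CPM in a, 8.30, 5.84 and 5.70 CPM in alpha and 5.49, 2.99 and 4.73 CPM in a/alpha. It was called higher in a than in a/alpha both before and after centring, and in alpha against a/alpha its log2 fold change went from 0.73 ± 0.38 (adjusted p = 0.212) to 1.23 ± 0.25 (adjusted p = 0.00472).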

How the data were processed

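The authors deposited whole-number counts per gene model for 9 libraries. Per the file headers they were made with featureCounts 2.0.1 over coding parts with the strand option set to 1 (reads on the model's own strand; whether this matches the directional kit was not tested), from alignments whose paths name fastp and STAR. The command lists 14 alignments, and those outside the 9 libraries were not analysed here. Per the labels' protocols, libraries were poly(A)-selected, directional and read as single 65-base reads. The column headers number the libraries as biological replicates. The authors also deposited 2 tables of log2 fold changes, standard errors, test statistics (a score per model) and p-values, named for DESeq2 in the submitters' processing notes. They were used to count calls.

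Counts were tested with edgeR 4.0.16 in R 4.3.3 (quasi-likelihood F test, TMM factors, all 9 libraries sharing 1 estimate of the spread) on the 5042 models kept by filterByExpr, with Benjamini-Hochberg adjustment over all of them. Log2 CPM used a prior count of 2. Centring adds each library's median arm deviation to the offset of all arm models. Standard errors are the fold change divided by the square root of F, and are approximate. DESeq2 1.42.0 was an alternative.

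Named members are, after centring, the 6 highest and 6 lowest log2 fold changes of each comparison, or all where fewer qualified. To qualify, a member was called, at least 2-fold different and without overlap between the libraries of the compared groups. Some of them overlap a model on the other strand. Also named are the 5 most abundant per kb and the 3 on each side of the boundary. The 3 with the highest and lowest correlation with the shift, among those with at least 500 counts, complete the list. The text describes a part of them. The members and lists were chosen with earlier results of these data known. Exact permutation tests of the arm's level had been planned and are not given, since the members were chosen with results known. Markers could not be looked up, because the files pair no names with the models. In a and alpha, deviations of libraries with the same number correlated by 0.797, 0.268 and 0.612 over 4734 models for numbers 1, 2 and 3. Number 2 correlated more with another number, by 0.543, and no label says that the numbers mark a batch. Since every same-number correlation was over 0.1, the numbers were taken as pairing these libraries, a choice made from these same data. This pairing was used only for the shift within numbers and for the fits with a block. The main fit, from which the values of single members come, held no block. With a/alpha the numbers did not pair.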

Additional observations from a re-analysis of the deposited data

Results flagged for a closer look

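The difference from a/alpha in a, less that in alpha, is the a against alpha contrast of the edgeR fit. After centring, 84 members (20.9%) were called in it, against 21.6% of all tested models. The 11 members listed here are a part of these, taken from the named members with the largest fold changes. On the log2 scale, a minus alpha was -7.45 at 475936, -2.24 at 474022, -2.03 at 513161, -1.37 at 64319, -1.33 at 441633 and -1.31 at 941677. It was 3.06 at 481147, 1.68 at 904769, 1.60 at 647156, 1.25 at 350495 and 1.24 at 158428. The member at 158428 to 159108 measured 27.4, 18.3 and 23.5 CPM in a and 7.54, 8.97 and 7.12 CPM in alpha, without overlap. The members at 441633 and 158428 hardly followed the arm's shift, with slopes of -0.08 and 0.12. For both, the subtraction removes a movement that they hardly showed. The value at 441633 before centring was -1.06.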

How the results depend on the processing

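Before centring, leaving out 1 library moved the number of members called from 47 to between 22 and 188 in a against a/alpha, from 51 to between 16 and 129 in alpha against a/alpha, and from 52 to between 19 and 98 in a against alpha. In these fits 6.60% to 21.2%, 3.00% to 19.4% and 8.44% to 23.8% of all tested models were called. After centring the ranges were 51 to 91 (from 77), 31 to 79 (from 67) and 44 to 100 (from 84). Of all tested models 8.48% to 19.9%, 4.61% to 22.5% and 11.6% to 27.4% were then called. DESeq2 called 91 members in alpha against a/alpha before centring, 21 higher and 70 lower. That is 22.6% of members, against 16.5% of all tested models. With the replicate number as a block on all 9 libraries, 148, 264 and 138 members were called before centring in the 3 comparisons in this order (30 higher and 118 lower, 23 and 241, and 109 and 29), where 24.1%, 30.8% and 31.2% of all tested models were. After it 121 and 117 were called in those with a/alpha, where 25.4% and 29.2% of all models were. The numbers did not pair with a/alpha, so this block does not suit those comparisons, and no conclusion is drawn from their counts. The block on a and alpha alone, added after seeing the data, gave 216 before and 162 after, with 43.6% and 43.8% of all models called. Fits of 2 groups alone gave 166 in alpha against a/alpha and 28 in a against alpha before centring, with 18.4% and 12.6% of all models called. Upper-quartile scaling changed the split before centring to 14 higher and 59 lower in alpha against a/alpha, and to 50 higher and 11 lower in a against alpha, where it moved the median of all models from 0.05 to 0.17. Under this scaling 11.1% and 19.8% of all tested models were called. With the mean in place of the median as the shift, 37 were higher and 42 lower in alpha against a/alpha after centring, where 14.6% of all models were called. The arm's share of counts, alpha minus a/alpha, was -0.45 percentage points and -0.91 without its 10 most abundant members. The member at 433730 to 434179, which lies inside another model, lost its call in a against alpha without a replicate 1, alpha replicate 2 or alpha replicate 3. The arm's median deviation, a minus alpha, turned from 0.29 to -0.01 without a replicate 1. The arm's share of counts, a minus alpha, turned from 0.10 percentage points to -0.11 with the boundary at 900000, to -0.56 without a replicate 1 and to -0.19 without alpha replicate 2. Both differences, with all libraries in and the numbers not paired, lie within the spread between replicates. The cause of these changes was not tested.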
